A study of Homo sapiens with 36 samples.

Results

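The comparison described here was GSK-J4 alone against control in NT2/D1-A4 cells, a cisplatin-resistant clone of the human embryonal carcinoma line NT2/D1. It was drawn from 6 of the 36 RNA-seq libraries of the series, 3 labelled NT2/D1-A4.GSK-J4 and 3 labelled NT2/D1-A4.VC, and covered all 16431 genes of the deposited table. The GSK-J4 cells had received 1 µM of the compound for 3 days, the control (VC) cells had received neither GSK-J4 nor cisplatin, and both came from the same clone, so other clones of NT2/D1 were not sampled. Further libraries of the series were used beside these. NT2/D1-A4 cells given 0.5 µM cisplatin for 6 h with (Combination) or without (Cisplatin) the same GSK-J4 pretreatment served to look up the same genes. They also entered the fit that set the spread behind each call. The effect was compared as well with the 3 control and 3 GSK-J4 libraries of the resistant clone 2102EP-C1. Cisplatin-treated libraries of that clone, with and without GSK-J4, entered only the fit between lines. By the account of the study, RNA was taken a day after the cisplatin treatment and not at its end. No separate collection time is given for cells without cisplatin. The study calls the libraries of a group biological replicates, but the labels do not say whether they came from separate cultures, and p-values measured only the spread between these libraries.

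GSK-J4 is a cell-permeable inhibitor of the jumonji demethylases KDM6A and KDM6B, which remove methyl groups from lysine 27 of histone H3. That mark is written by polycomb repressive complex 2 and accompanies gene silencing. The following cellular programs recur below. In the integrated stress response, kinases that phosphorylate the translation factor eIF2 slow general protein synthesis while the transcription factor ATF4 is still translated, and ATF4 with its partners switches on genes for amino acid uptake, amino acid synthesis and tRNA charging. In the p53 response, the tumour suppressor p53 switches on genes of cell-cycle arrest, repair and death. In sterol control, SREBP2 switches on the enzymes of cholesterol synthesis.

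Values were log2 counts per 1e6 reads (log2 CPM) as deposited. A call needed a change of over 1.3-fold together with a p under 0.05 after Benjamini-Hochberg (BH) adjustment, from limma-trend, a linear model with a variance trend that was fitted over the 12 NT2/D1-A4 libraries. Depth was 30.4 to 43.3 M reads (M, 1e6) in control and 31.2 to 49.5 M in GSK-J4 libraries. The scaling factors of the authors moved with the treatment, from 0.974 to 0.982 in control and from 1.008 to 1.014 in GSK-J4 libraries. With scaling to library size only, the median of all genes moved from 0.01 to 0.05 (log2) and the calls from 2267 up and 1065 down to 2626 up and 817 down.

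Of the 16431 genes, 20.3% were called, 13.8% up and 6.48% down. The rises were larger than the falls. The median called rise was 0.69 (log2) and the median called fall was -0.52, and 534 rises against 72 falls were over 2-fold. No fall was over 4-fold, while 71 rises were. The largest called rise was 3.99 and the largest called fall was 1.84 in size on the log2 scale. The 2 treatment groups did not overlap in 2199 of the 2267 called rises and 1032 of the 1065 called falls, against 59.6% of all genes. Calls up were most frequent among genes of low level in control cells, at 21.7% and 21.9% below the median control level (in 2 groups of 4108 genes) compared with 8.23% and 3.43% above it. Calls down ran from 4.82% to 8.86% across the same groups. The table kept genes over 0.5 CPM in 2 or more libraries, so a gene low in control could enter through treated libraries alone. The control level is also a term of the change. How far either raised the share of calls up at low level was not tested. Long noncoding RNA genes were called up in 15.1% and down in 7.3% of 2013 cases, and protein-coding genes in 13.9% and 6.48% of 13514.

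**Figure D1:**
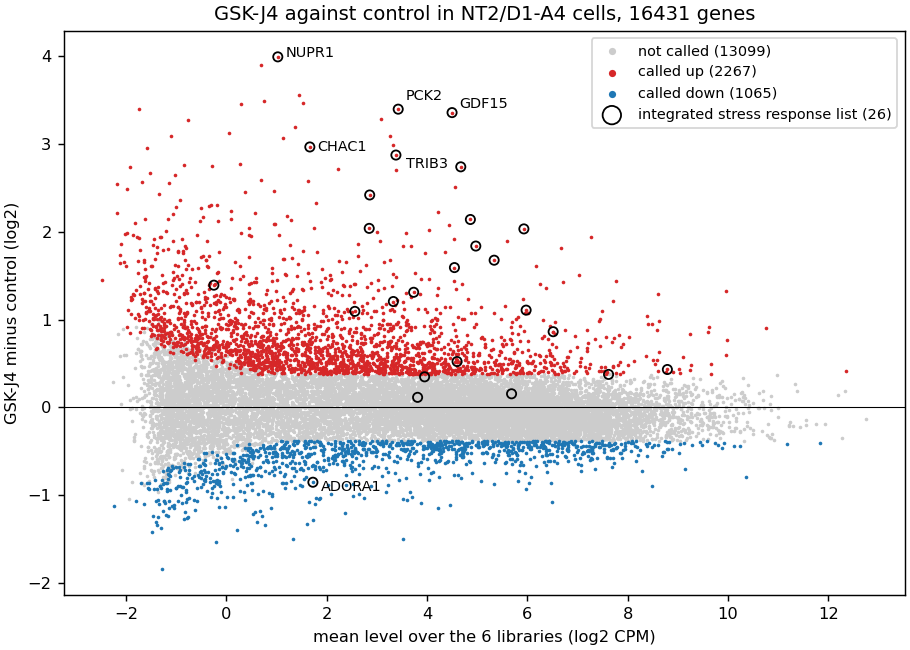
Change with GSK-J4 (log2, vertical axis) against mean level over the 6 libraries (log2 CPM, horizontal axis) for 16431 genes, with called genes in red and blue and the 26 measured genes of the integrated stress response list circled. Rises reach 3.99 while the largest fall is 1.84 in size, and 21 of the circled genes are called up.

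Among the targets of the compound, KDM6A stood at 6.57, 6.54 and 6.54 log2 CPM in control and 6.62, 6.60 and 6.60 in GSK-J4 libraries, a difference of 0.06 that was not called. KDM6B stood at 3.60, 3.63 and 3.77 in control and 4.45, 4.59 and 4.61 in GSK-J4 libraries, and every GSK-J4 library lay above every control library. KDM6B and the predicted gene LOC124904106 share 49.2% of the KDM6B span. The other members of the jumonji demethylase list did not follow: of 20 measured, KDM6B was the only one called up and JMJD6 (-0.60) the only one called down. None of 12 measured subunits of polycomb repressive complex 2 was called (median -0.08), beside 20.3% of all genes called either way. These mRNA levels do not measure the activity of the enzymes.

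The largest rise, that of NUPR1, was in the integrated stress response list, which held 5 of the 12 largest rises named by rule. Of 28 listed genes 26 were measured, and 21 were called up (80.8%) and 1 down (3.85%), beside 13.8% and 6.48% of all genes. The median log2 fold change was 1.49 beside 0.01 over all genes tested. In single libraries, the median deviation of the list from the control mean was 1.43, 1.54 and 1.58 in GSK-J4 libraries and between -0.03 and 0.02 in control libraries. NUPR1 (chromosome 16:28532708-28538974 on GRCh38.p14), a small stress-induced chromatin protein, had 16, 16 and 13 reads in control and 256, 393 and 363 reads in GSK-J4 libraries. Its level rose from -0.83, -1.12 and -0.95 to 3.03, 2.99 and 3.04 log2 CPM (log2 fold change 3.99, SE 0.15, limma-trend BH-adjusted p 2.1e-13). Every gap between the groups was far wider than the spread within them.

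PCK2, the mitochondrial phosphoenolpyruvate carboxykinase, rose from 1.83, 1.66 and 1.70 to 5.12, 5.06 and 5.19 log2 CPM (3.39, SE 0.08), but its span lies wholly within that of NRL. GDF15 (chromosome 19:18386158-18389176), a secreted stress cytokine, rose from 2.55, 2.88 and 3.03 to 6.08, 6.18 and 6.27 (3.35, SE 0.09). TRIB3, a pseudokinase that is a target and a brake of the pathway, rose from 1.98, 1.75 and 2.11 to 4.82, 4.79 and 4.84 (2.87, SE 0.09). These 3 genes were named by a rule that required groups without overlap. CHAC1, which degrades glutathione, rose from 0.14, 0.16 and 0.25 to 3.22, 3.08 and 3.15 (2.96, SE 0.14). DDIT4, an inhibitor of mTORC1, rose by 2.74, ADM2 by 2.42, the lipoprotein receptor VLDLR by 2.14 and SESN2, a leucine sensor, by 1.84.

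The transcription factors of the response moved less evenly. ATF4 itself stood at 7.41, 7.47 and 7.41 log2 CPM in control and 7.84, 7.80 and 7.78 in GSK-J4 libraries, a log2 difference of 0.38 (SE 0.03, limma-trend BH-adjusted p 3.1e-08) whose fold of 1.298 lay just under the 1.3 threshold. DDIT3, which encodes CHOP, rose from 1.83, 1.98 and 1.68 to 3.92, 3.86 and 3.83 (2.04, SE 0.10), though 70.5% of its span is shared with LOC128125814. ATF3 rose by 1.59, CEBPB (70.5% of its span shared with CEBPB-AS1) by 1.21 and CEBPG by 0.86, while ATF5 stood 0.11 higher and was not called. PPP1R15A, which directs the phosphatase that removes phosphate from eIF2, rose by 0.52. It was the only one of 11 measured eIF2 kinases, phosphatases and their regulators to be called. The kinase mRNAs EIF2AK1 (-0.12), EIF2AK2 (-0.02), EIF2AK3 (0.31) and EIF2AK4 (-0.04) were not called. ADORA1, an adenosine receptor, was the only listed gene that fell (-0.85).

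**Figure D2:**
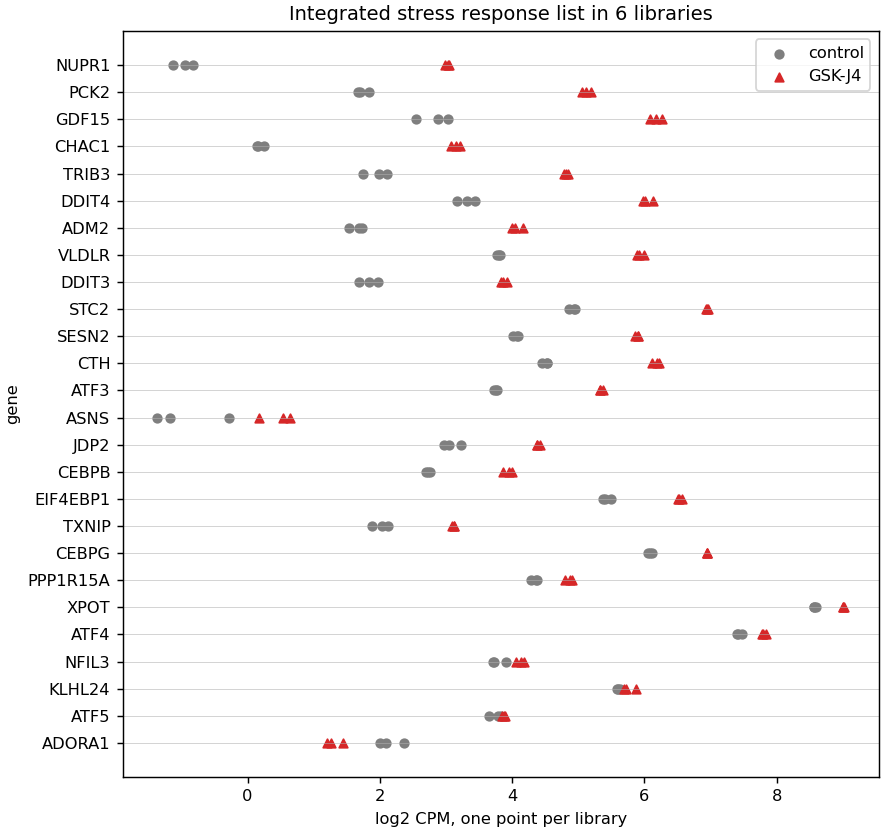
Level of each measured gene of the integrated stress response list in the 3 control (gray circles) and 3 GSK-J4 (red triangles) libraries, in log2 CPM, ordered by change. NUPR1 lies at the top with a change of 3.99, and ADORA1 at the bottom with -0.85.

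Genes of amino acid supply rose with it. Of 27 measured amino acid transporters 14 were called up (51.9%) and 2 down (7.41%), with a median of 0.51. Over all genes the shares were 13.8% up and 6.48% down. SLC6A9, a glycine transporter, rose from 0.72, 0.90 and 1.02 to 3.62, 3.56 and 3.58 log2 CPM (2.71), and SLC1A4, which carries neutral amino acids, from 2.16, 2.05 and 1.90 to 4.59, 4.77 and 4.84 (2.70). SLC7A11, the cystine carrier, rose by 1.94. The leucine carrier SLC7A5 and its partner SLC3A2 rose by 1.04 and 0.99. The glutamate transporter SLC1A3 fell (-0.55), as did the arginine transporter SLC7A2 (-0.44).

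Of 19 measured enzymes of serine, one-carbon and proline metabolism 10 were called up (52.6%) and 1 down (5.26%), with a median of 0.41. These shares stand beside 13.8% and 6.48% of all genes. The serine synthesis enzymes PHGDH, PSAT1 and PSPH rose by 1.44, 1.32 and 1.16. The mitochondrial one-carbon enzymes ALDH1L2, SHMT2 and MTHFD2 rose by 2.98, 1.51 and 0.99, whereas cytosolic SHMT1 and MTHFD1 stood at 0.00 and -0.14 and were not called. PHGDH lay at 7.06, 7.02 and 7.08 log2 CPM in control and 8.47, 8.49 and 8.52 in GSK-J4 libraries.

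Aminoacyl-tRNA synthetases, which load amino acids on tRNAs, divided by compartment in their counts. Of 20 cytosolic enzymes 7 were called up (35%) and 1 down (5%), with a median of 0.25. Of 17 mitochondrial enzymes none was called up and 1 down (5.88%), with a median of -0.11. Over all genes 13.8% were called up and 6.48% down. SARS1 rose from 7.12, 7.08 and 7.10 to 8.31, 8.29 and 8.33 log2 CPM (1.21), followed by CARS1 (1.08), GARS1 (0.95) and WARS1 (0.95). QARS1 fell (-0.42), a call that was lost with scaling to library size only (-0.37). The asparagine synthetase ASNS is a member of the stress response list and had only 12, 13 and 22 reads in control and 33, 68 and 66 in GSK-J4 libraries (log2 fold change 1.39). ASNS shares 99.4% of its span with the readthrough gene CZ1P-ASNS, so its level and change are uncertain.

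Promoters were searched because these genes moved together. The RefSeq promoter table (GRCh38.p14, 250 bases before to 50 bases after each start) held 12328 of the genes tested. The amino acid response element (CARE, TGATGNAA, where N is any base, on either strand), to which ATF4 with C/EBP partners is known to bind, was present in 1.91% of all these promoters. It was present in 4.04% of promoters of genes called up, 7.79% (30 of 385) of those up over 2-fold, and 2.06% of those called down. In the lists it was in 3 of 24 stress response promoters and 6 of 16 promoters of cytosolic synthetases. Among called synthetases only CARS1 and AARS1 held a match, and the other matches of that list were in synthetases that were not called. The cyclic AMP response element TGACGTCA was in 3.11% of all promoters, 2.5% of those called up and 2.96% of those called down. The hypoxia element TACGTG was in 3.33%, 2.79% and 3.48%, and the E-box CACGTG in 9.77%, 7.07% and 11.7%. The sterol element TCACNCCAC was in 1.1%, 1.25% and 0.773%, the endoplasmic reticulum stress element in 0.146%, 0.119% and 0.129%, and a pair of p53 cores (CATG with 6 bases between) in 0.219%, 0.238% and 0.387%. The CCAAT box, which is also a part of the endoplasmic reticulum stress element, was in 36.6%, 34.3% and 34.7%, and in 15 of 19 promoters of the cholesterol list. A match describes letters in this window and not a bound site.

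The stretches around the CARE match are shown for called genes of the stress response list, with the match in capitals and 30 bases on each side, 5′ to 3′ on the strand of the gene, since they show the element beside the genes that moved. AARS1 and SLC1A3, a member that fell, were added after their values were seen, to show the element in a synthetase and in a gene that went the other way.
ATF3 (chr1:212565186-212565253, plus strand): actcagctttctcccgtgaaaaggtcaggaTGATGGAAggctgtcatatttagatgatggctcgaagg
CHAC1 (chr15:40953232-40953299, plus strand): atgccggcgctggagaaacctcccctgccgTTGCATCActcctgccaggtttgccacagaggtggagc
ASNS (chr7:97872439-97872506, minus strand): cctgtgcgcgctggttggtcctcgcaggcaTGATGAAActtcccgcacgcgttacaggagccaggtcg
AARS1 (chr16:70289656-70289723, minus strand): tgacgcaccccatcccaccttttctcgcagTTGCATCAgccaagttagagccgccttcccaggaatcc
SLC1A3 (chr5:36596338-36596405, plus strand): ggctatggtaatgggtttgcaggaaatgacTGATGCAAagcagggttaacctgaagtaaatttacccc

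The matches began 191, 209, 68, 187 and 220 bases before the annotated start of ATF3, CHAC1, ASNS, AARS1 and SLC1A3. In CHAC1 and AARS1 the letters TTGCATCA are the element read on the opposite strand. A further 4 called members (CARS1, SLC38A1, SLC3A2 and SLC7A1) held a match close to the start or past it.

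Other genes among the largest rises lay outside these lists. DDR2, a collagen receptor kinase, rose from -0.12, -0.14 and -0.69 to 3.19, 3.26 and 3.25 log2 CPM (3.55, SE 0.15). MKX, a homeobox factor of tendon, rose by 3.46, the neuronal kinesin KIF1A by 3.28 and LAMP3, a lysosomal membrane protein, by 3.19. ULBP1, a ligand of the natural killer cell receptor NKG2D, rose from 1.86, 1.67 and 1.63 to 4.85, 4.74 and 4.84 (3.09). ARHGAP9 rose by 3.07, and its span overlaps that of MARS1 by 757 bases. INHBE, an inhibin subunit measured within the NODAL and BMP list, had 13, 17 and 7 reads in control and 193, 276 and 300 with GSK-J4. For genes this low the deposited log2 values understate the fold.

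**Figure D3:**
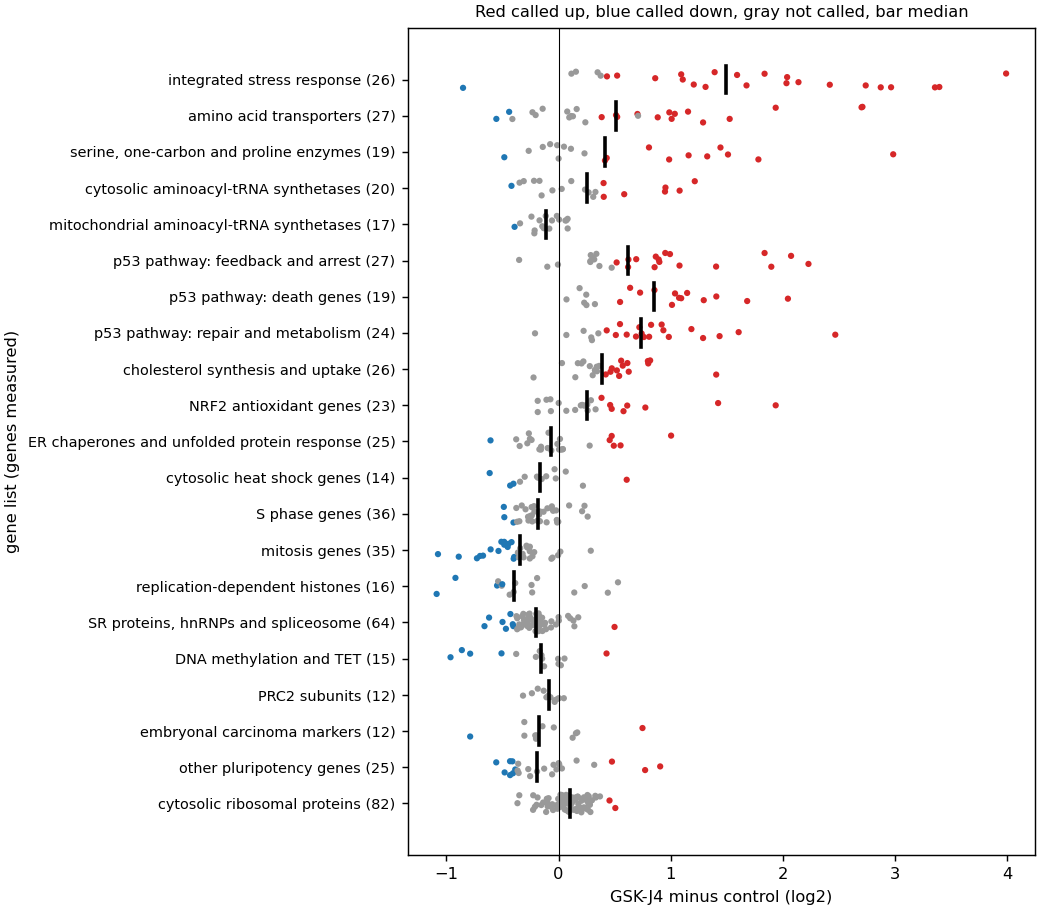
Log2 change with GSK-J4 (horizontal axis) for each measured gene of 21 gene lists, with genes called up in red, called down in blue, the others in gray, and the median as a black bar. The stress response list has the highest median (1.49), and the histone list the lowest (-0.39).

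Many genes of the p53 pathway rose. Over 3 lists, 47 of 70 measured genes were called up (67.1%) and 0 down, with a median of 0.72. All counts of this paragraph stand beside 13.8% up and 6.48% down over all genes. Among feedback and arrest genes 16 of 27 rose, and BTG2, an antiproliferative factor, went from 3.07, 3.08 and 3.20 to 5.20, 5.32 and 5.51 log2 CPM (2.23). Of 19 death genes 13 rose, including the BH3-only gene PMAIP1 (1.41) and the death receptor FAS (1.68), which shares 51.5% of its span with ACTA2. TNFRSF10C, a decoy receptor that binds the death ligand TRAIL without a death signal, is on the same list and rose by 2.04. Of 24 repair and metabolism genes 18 rose, including the lipid transporter ABCA12 (2.47), the growth factor KITLG (6.90, 6.97 and 7.08 against 5.36, 5.36 and 5.42) and FDXR (1.44), a mitochondrial reductase. In the BCL2 family 7 of 15 genes rose and none fell. The members that rose were of both kinds, with the death-promoting HRK (1.58), BBC3 (1.09), BID (0.58), BIK (0.46) and BMF (0.41) and BCL2L1 (0.48), best known for its protective form, which shares 70.1% of its span with BCL2L1-AS1.

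Cholesterol genes moved together by smaller amounts. Of 26 measured genes 13 were called up (50%) and none down, beside 13.8% and 6.48% of all genes. Of the 26, 25 were higher, and the median was 0.39. The sterol reductase TM7SF2 rose from 1.81, 2.00 and 1.78 to 3.18, 3.23 and 3.40 log2 CPM (1.41). STARD4, MSMO1 and ACAT2 rose by 0.82, 0.80 and 0.80 and the regulator SREBF2 by 0.52. In the fatty acid list 3 of 15 genes rose and SREBF1 fell (-0.62), with a median of 0.03.

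The antioxidant list of the factor NRF2 had 8 of 23 genes called up and none down (median 0.26), led by SLC7A11 and by NQO1, a quinone reductase, which rose by 1.42. Of 19 iron genes 6 rose and 1 fell, with ferritin chains FTL (0.77) and FTH1 (0.61), the exporter SLC40A1 (1.41) and the uptake receptor TFRC (0.60) among the rises, and the list median was -0.02. In the hypoxia list 8 of 26 rose, with the angiogenic factor VEGFA at 2.02, whereas in glycolysis 1 of 20 rose and 2 fell. Chaperones did not rise as a group. In the endoplasmic reticulum list 5 of 25 were called up, among them HERPUD1 (1.00), and HSPA5, its main chaperone, stood at -0.25 and was not called. Of 14 cytosolic heat shock genes 3 fell, including HSPH1 (-0.61), and 1 rose. Beside all counts of this paragraph, the share over all genes was 13.8% up and 6.48% down.

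Among genes of mitosis many fell. Of 35 mitosis genes 15 were called down and none up, 33 were lower, and the median was -0.34. CENPE, a kinetochore motor, fell from 7.05, 7.01 and 7.03 to 6.09, 5.95 and 5.84 log2 CPM (-1.07, SE 0.06, limma-trend BH-adjusted p 2.8e-11). MKI67, the proliferation marker, fell from 9.05, 8.83 and 8.89 to 7.88, 8.17 and 8.05 (-0.89). CENPF, ASPM and KIF20A followed at -0.73, -0.70 and -0.67. Not every member moved, since CDK1 (-0.06) and CCNB2 (-0.05) were not called. In S phase genes 3 of 36 fell (8.33%, beside 6.48% of all genes) and none rose (median -0.18), a count that was 5 without the second control or the second GSK-J4 library. Among replication-dependent histones 4 of 16 fell, with the linker histone H1-2 at -1.09, and near-identical copies of these genes share reads. The libraries were made with an mRNA kit, and how fully they hold histone transcripts was not tested.

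Of 15 measured regulators of DNA methylation 4 were called down (26.7%) and 1 up (6.67%), beside 6.48% and 13.8% of all genes. DNMT3L, the cofactor of new methylation, fell from 3.62, 3.69 and 3.70 to 2.73, 2.67 and 2.71 log2 CPM (-0.96). UHRF1, which brings DNMT1 to replicated DNA, fell by 0.86 on the log2 scale. DNMT3B, a de novo methyltransferase that is abundant in embryonal carcinoma, fell from 10.8, 10.7 and 10.8 to 9.99, 9.99 and 9.92 (-0.79, SE 0.05). The demethylating enzyme TET1 fell as well (-0.51). DNMT1 (-0.17), DNMT3A (-0.15) and TET2 (-0.15) were not called, and ZBTB38, a reader of methylated DNA, rose (0.43).

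The remaining largest falls were in genes of varied function. SEMA6B, a guidance cue, fell from 4.24, 4.27 and 4.28 to 2.78, 2.81 and 2.71 log2 CPM (SE of the difference 0.07), and every GSK-J4 library lay below every control library. PPP1R1B, a phosphatase inhibitor, fell by 1.49 and the proton pump subunit ATP6V0A4 by 1.33. LRRC15 fell from 2.98, 2.98 and 2.95 to 1.73, 1.83 and 1.78 log2 CPM. Of the germ cell genes, TEX19 fell from 2.33, 2.56 and 2.20 to 1.16, 1.14 and 0.96 and TEX15 from 5.05, 4.97 and 5.02 to 3.83, 3.90 and 3.99. The noncoding RNA SNHG26 fell by 1.08, and IL13RA2, a decoy receptor of interleukin 13, and CMKLR1, the chemerin receptor, stood at -1.05 and -1.04. ACP3, H1-2 and CENPE also belong to the 12 largest falls, which were chosen among called genes without overlap of the groups.

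All 12 markers of embryonal carcinoma were measured, and POU5F1 stood at 8.97, 8.93 and 9.02 log2 CPM in control and 9.15, 9.13 and 9.10 in GSK-J4 libraries. NANOG stood at 8.35, 8.38 and 8.38 against 8.21, 8.23 and 8.25, and SOX2 was 0.30 lower, with neither past the fold threshold. DNMT3B fell (-0.79) and CRIPTO, a NODAL coreceptor, rose (0.75), and the other 10 markers were not called. That is 8.33% each way, beside 6.48% down and 13.8% up over all genes. Of the 12, 8 were lower and 4 higher. The summed level of the 12 markers was between 8641 and 8879 CPM in GSK-J4 libraries and at least 9985 CPM in control libraries. This sum weighs abundant markers most, DNMT3B among them, and does not show a fall of each marker. Of 25 further pluripotency genes 7 fell, among them UTF1 (-0.55) and the adhesion genes CDH1 (-0.48) and EPCAM (-0.41), and 3 rose, the NODAL antagonists LEFTY1 (0.77) and LEFTY2 (0.91) and the factor FOXD3 (0.48, with 73.2% of its span shared with FOXD3-AS1). These shares, 28% down and 12% up, stand beside the same 6.48% and 13.8% of all genes. With scaling to library size only, 4 fell.

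Markers of other cell types moved in both directions. Of measured markers, 2 of 5 neural, 4 of 6 mesoderm, 3 of 4 endoderm and yolk sac and 3 of 3 trophoblast genes were called up. These shares stand beside 13.8% of all genes and 21.7% of the genes of lowest control level. In cisplatin-treated cells 1, 1, 2 and 3 of them were called up. HAND1 counted in both the mesoderm and the trophoblast list. The lists held 10, 8, 8 and 8 genes, and those that were not in the table included SOX17, GATA6, FOXA2, CDX2 and CGA. The 5 neural genes summed to between 43.3 and 45.6 CPM in control and between 45.3 and 50.6 CPM in GSK-J4 libraries, ranges that overlapped, and the 6 mesoderm genes to between 50.9 and 55.1 and between 59.3 and 60.3 CPM. The 4 endoderm genes summed to between 3.01 and 3.42 CPM in control and between 5.25 and 6.0 CPM in GSK-J4 libraries, and the 3 trophoblast genes to between 9.11 and 11.2 and between 16.8 and 19.8 CPM. The mesoderm factor EOMES rose by 0.80, with 2.40, 2.46 and 2.65 log2 CPM in GSK-J4 libraries and at most 1.92 in control. The neural factor PAX6 went from 2, 6 and 3 reads to 16, 26 and 19. Its control reads lay below the 0.5 CPM of the filter, so it entered the table through treated libraries. Other markers low in control could have entered in the same way, which can raise the shares called up and was not tested. In bulk RNA, more cells of a type and more RNA per cell cannot be told apart, and the part of these markers in the other changes was not tested. The 2 measured fibroblast markers were lower, with a sum between 21.9 and 25.5 CPM in control and between 17.4 and 18.2 CPM in GSK-J4 libraries, and COL1A2 (-0.46) was called down. Of 3 seminoma markers PRDM1 rose (0.59) and KIT fell (-0.40). Markers of blood cells were not in the table, and none of 3 endothelial markers was called.

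Of 51 measured homeobox, T-box and related developmental factors 18 rose (35.3%) and 4 fell (7.84%), with a median of 0.12, beside 13.8% and 6.48% of all genes and 21.7% up among the genes of lowest control level. The called factors included OTP (1.97), MSX1 (1.83) and IRX5 (1.39) up and SIX2 (-0.79) and TBX1 (-0.68) down. With a filter at a mean of 1 log2 CPM, 21 of the 51 were tested and 5 were called up. Of 16 HOX genes 4 rose and none fell. In the NODAL and BMP list 12 of 33 rose and none fell, with the BMP targets ID2 (0.93), ID3 (0.41, its span wholly shared with LOC124903876) and ID4 (0.76) and the BMP antagonists NOG (1.03) and GREM1 (0.83) among them. AP-1 and immediate early genes had 12 of 26 up and 1 down, DUSP5 (-0.84).

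Adhesion genes changed in both directions. Of 23 cadherins and epithelial-mesenchymal genes 7 rose and 4 fell, with the cadherin CDH6 (1.39), SNAI2 (1.68) and occludin OCLN (1.00) up and the splicing regulator ESRP1 (-0.84), CDH1 and EPCAM down. Among 37 collagens, laminins and related matrix genes 10 rose and 2 fell, and 6 rose without the third control library. Of 12 genes of antigen presentation 3 rose, with HLA-B at 1.72 and the transporter TAP1 at 1.08, and CIITA fell (-0.55); reads of HLA genes can be shared between paralogs. For interferon-stimulated genes 4 of 24 rose and 3 fell (16.7% and 12.5%). Of 451 KRAB and other zinc finger genes 37 rose and 20 fell, which is 8.20% and 4.43%. All counts of this paragraph stand beside 13.8% up and 6.48% down over all genes, and both zinc finger shares lay below these.

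The same genes were looked up in the cells that also received cisplatin. Those 6 libraries share no sample with the comparison above. Both comparisons came from the same fit, with a shared spread for each gene, so their calls are not independent. Combination against Cisplatin called 12.8% of genes up and 7.84% down. Of the 2267 genes called up without cisplatin 1612 (71.1%) were also called up with it, which is 76.5% of the 2107 called up there, and 98.3% had the same sign. Of the 1065 called down 734 (68.9%) were called down with it, 56.9% of the 1289 called down there, and 99.2% had the same sign. The stress response list had 22 of 26 genes up and 1 down in the cisplatin-treated cells, with a median of 1.42, and the mitosis list 21 of 35 down. For the 2267 rises and 1065 falls called without cisplatin, median log2 fold changes were 0.69 and -0.52 in the comparison that chose them. In cisplatin-treated cells these medians were 0.57 and -0.48, and no test was made of this difference.

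The difference between the GSK-J4 effects with and without cisplatin was tested directly and was called for 7 genes, 0.0426% of the table, all with a lower value in cisplatin-treated cells. At an unadjusted p under 0.05 there were 1174 genes. FST, an activin-binding protein, rose from 3.55, 3.60 and 3.57 to 5.46, 5.54 and 5.47 log2 CPM with GSK-J4 alone (1.92) and from 4.33, 4.33 and 4.39 to 5.63, 5.64 and 5.71 in cisplatin-treated cells (1.31). Its difference was -0.61 (SE 0.07, limma-trend BH-adjusted p 0.00034). For FST, GDF15, FDXR, EPS8L2, NKX1-2 and PLAGL1, every Cisplatin library lay above every control library. PLAGL1 rose by 0.73 with GSK-J4 alone and differed by 0.06 in cisplatin-treated cells, with 3.27, 3.27 and 3.36 log2 CPM in Cisplatin and 3.38, 3.33 and 3.37 in Combination libraries. Leaving out single libraries gave between 1 and 11 genes. In 10 of 12 cases the count moved by over 1.5 times, all but those without the first GSK-J4 or the third Combination library.

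**Figure D4:**
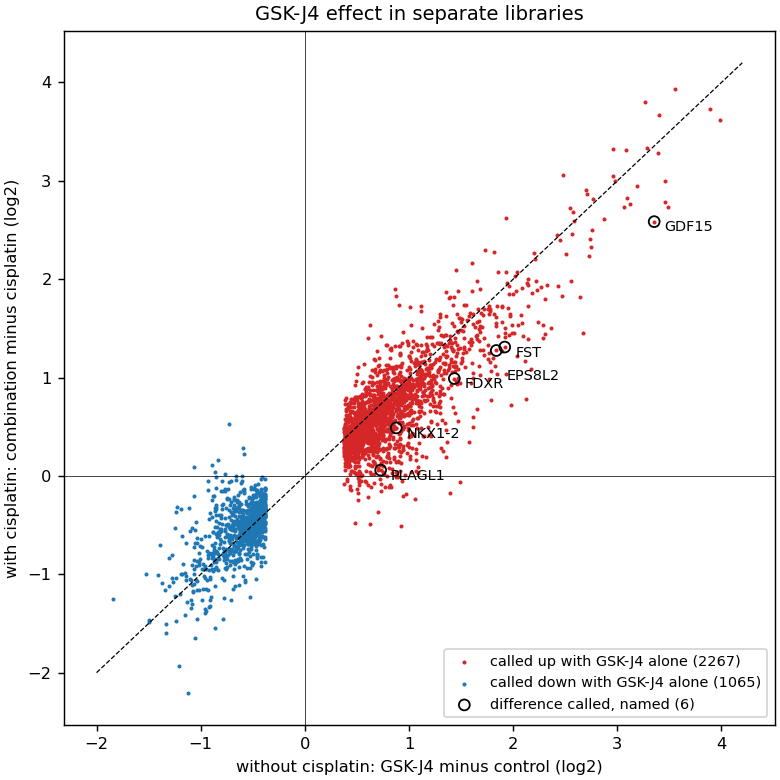
Log2 change with GSK-J4 in cells without cisplatin (horizontal axis) and in cisplatin-treated cells (vertical axis) for genes called up (red) or down (blue) without cisplatin, with a dashed line of equal change. Most points share the sign, and the 6 circled genes, called for the difference, lie below the line.

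The change of each gene was also set beside that in the 2102EP-C1 clone. The difference of the GSK-J4 effects was tested on reads of both experiments scaled together and was called for 10.6% of 15663 genes, 1104 with a higher value in NT2/D1-A4 and 556 with a lower one. Line and experiment cannot be told apart in this difference. In the stress response list 13 of 26 genes had a higher and 3 a lower change in NT2/D1-A4, and the median change was 0.94 in 2102EP-C1 cells. DDIT4 rose by 2.74 in NT2/D1-A4 and 0.59 in 2102EP-C1 (difference 2.16, SE 0.08, limma-trend BH-adjusted p 2.6e-18). Its control level was 3.31, 3.45 and 3.17 log2 CPM in NT2/D1-A4 and 6.09, 5.94 and 6.15 in 2102EP-C1 cells, and after GSK-J4 it was 5.99, 6.03 and 6.15 and 6.62, 6.74 and 6.58. STC2, a secreted glycoprotein, rose by 2.04 and 0.41, ARHGAP9 by 3.08 and 0.93, PCK2 by 3.40 and 1.55, and CHAC1 by 2.97 and 1.33, which made up the 5 largest differences in that direction.

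The reverse order held for 5 genes named by the same rule. ATF5 stood 0.12 higher with GSK-J4 in NT2/D1-A4 and rose by 1.47 in 2102EP-C1. FLNC, an actin crosslinker, changed by 0.29 and 2.16, the collagen COL12A1 by 0.39 and 1.88, LAMP3 by 3.20 and 4.53, and the epithelial factor BNC1 by -0.40 and 1.37. For DDIT3 (2.04 and 2.30) and ATF4 (0.38 and 0.29) the difference between lines was not called. Cholesterol genes differed most evenly: for 21 of 26 the change was called higher in NT2/D1-A4 and for none lower, with medians of 0.40 and -0.11. HMGCS1, an early enzyme of the pathway, went from 8.79, 8.84 and 8.81 to 9.41, 9.40 and 9.36 log2 CPM in NT2/D1-A4 and from 9.30, 9.23 and 9.34 to 9.16, 9.20 and 9.19 in 2102EP-C1 cells. The p53 death genes were higher in change for 11 of 19 and lower for 1, with medians of 0.86 and 0.37. For mitosis genes the difference was called for 4 of 35, all with a more negative value in NT2/D1-A4.

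**Figure D5:**
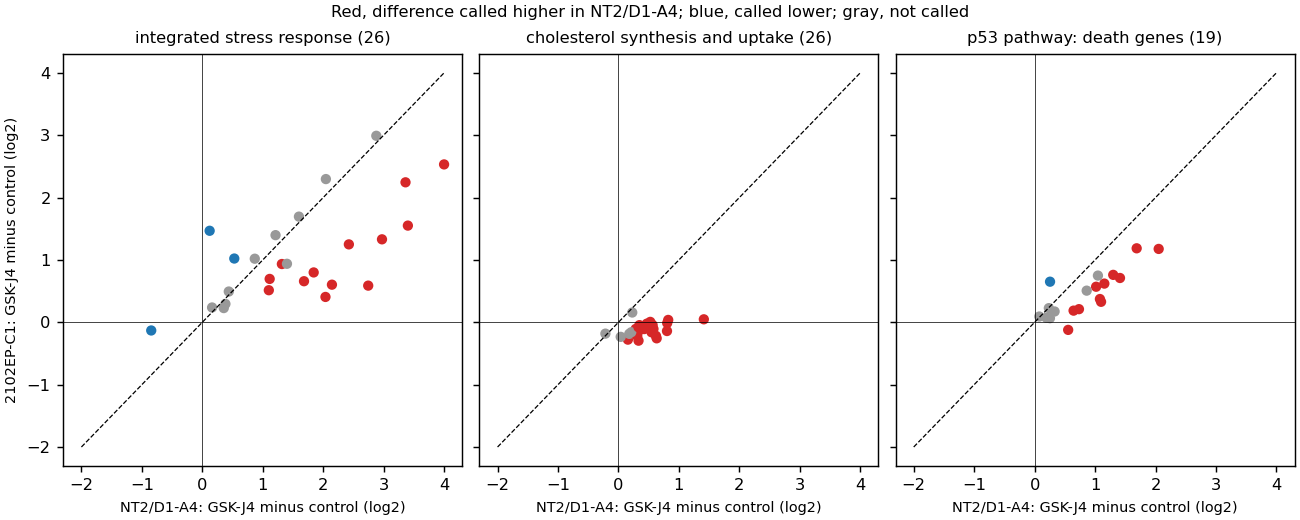
Log2 change with GSK-J4 in NT2/D1-A4 (horizontal axis) and 2102EP-C1 (vertical axis) for the genes of 3 lists, with a dashed line of equal change and genes colored by the test of the difference. The 26 cholesterol genes lie near 0 in 2102EP-C1 and mostly above 0 in NT2/D1-A4.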

How the data were processed

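The authors aligned trimmed reads of stranded mRNA libraries to GRCh38.p14 with STAR, counted them with featureCounts, required over 0.5 CPM in 2 or more libraries and deposited log2 CPM at TMM-scaled library sizes, with a prior count of 3 as read from the values. Versions and the strand setting of the count are not given in the sources used here, so genes that overlap another gene are uncertain. Reads recovered from the log2 values were whole within 0.05 for 100% of values under 50 reads, and gave the depth and the voom alternative. Both GSK-J4 tables were used, and the knockdown table was not. Some genes that enter the fits and counts are not reported here by name.

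limma 3.58.1 (R 4.3.3) was fitted with 1 mean for each group and a variance trend, two-sided, without a block, and BH adjustment covered all genes. The lines were compared on 24 libraries, with TMM recomputed over both. The scripts were tested on simulated counts. The members and the 57 gene lists were chosen with earlier results of these data known. Genes named besides list members were the 12 largest rises and falls among called genes with a mean of at least 1 log2 CPM, groups without overlap and an established symbol, the genes called for the cisplatin difference, and the 5 largest differences each way between lines. Symbols matched 16414 of 16431 genes in RefSeq, and length with GC content was known for 14966 (91.1%). Alternatives were a filter at a mean of 1 log2 CPM, a prior count of 0.5, library size only, voom, a replicate block, a removed length and GC trend (alone and with the block), only the libraries compared, and leaving out each library.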

Additional observations from a re-analysis of the deposited data

Results flagged for a closer look

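The GSK-J4 effect differed between cells with and without cisplatin, by the test of the difference itself, for 7 genes, of which 6 are given. The log2 difference (with minus without cisplatin) was -0.61 for FST, -0.39 for NKX1-2, -0.77 for GDF15, -0.67 for PLAGL1, -0.56 for EPS8L2 and -0.45 for FDXR (limma-trend, BH-adjusted p from 0.00034 to 0.045). The spans of EPS8L2 and DEAF1 overlap by 853 bases. Between NT2/D1-A4 and 2102EP-C1, the test of the difference called 1660 genes. Groups of 3 libraries were too small for a search for outlying samples.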

How the results depend on the processing

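The GSK-J4 count of 3332 fell to 2208 with a filter at a mean of 1 log2 CPM, which tested 12017 genes, and the count within cisplatin-treated cells from 3396 to 2185. The cisplatin difference gave 11 genes with the length and GC trend removed, and 11 with the replicate block added to that, in place of 7. Leaving out single libraries gave between 1 and 11 genes there. No other alternative moved these counts by over 1.5 times. Same-numbered control and GSK-J4 libraries did not deviate together (correlations over 12017 genes of -0.12, -0.17 and -0.01). Same-numbered Cisplatin and Combination libraries correlated at 0.19, 0.05 and 0.28, and differently numbered ones between -0.28 and 0.07. The labels do not say whether the numbers mark pairs, and the main fits did not treat them as pairs. The replicate block gave 3332 genes with GSK-J4 alone. It gave 3358 in place of 3396 within cisplatin-treated cells and 6 in place of 7 for the cisplatin difference. Of 399 named or listed genes, none changed direction under any alternative run, and 87 lost the call under at least 1. Depth limits genes of few reads, whose log2 values understate the fold. The cause of these moves was not tested, other than fewer genes tested under the filter.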
